A study of Homo sapiens with 12 samples.

Results

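The very broad accessible regions of 2 cancer cell lines, DU-145 and BT-549, were examined. They were selected on their measured width, as autosomal accessible regions divided into 40 or more bins of 100 bp, and so were at least 4 kb wide. There were 439 of them among the 77618 autosomal regions of DU-145 (0.566%) and 374 among the 45083 autosomal regions of BT-549 (0.830%). Their widths are therefore given as a description. The numbers of regions in each line were read from separate tables, and each line was treated as its own group.

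Chromatin accessibility had been measured by ATAC-seq, in which the Tn5 transposase inserts sequencing adapters into DNA that is free of nucleosomes. DU-145 is a line of castration-resistant prostate cancer and BT-549 is a line of triple-negative breast cancer. Both carried tet-MUC1shRNA, a hairpin RNA against MUC1 that doxycycline (DOX) switches on. In each line, 3 libraries came from vehicle cells, which received 0.1% DMSO, and 3 from cells kept in DOX for 7 days, so all 12 libraries carried the hairpin construct and none came from cells with a control hairpin. The libraries of a group are described as biologically independent. A hairpin lowers RNA and not the DNA of its target, so accessibility cannot check the knockdown. The 1 broad region that touched MUC1, in BT-549 at the starts of KRTCAP2 and TRIM46, had a log2 change with DOX of 0.27 (SE 0.104, adjusted p = 0.048). That call was lost with library totals (0.17), cyclic loess (0.05) and the GC trend removed (0.09), with a replicate block and without any one library.

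Summed coverage per library, in units of 1e06, was between 12.4 and 25.2 in DU-145. In BT-549 it was between 9.14 and 13.6 in vehicle libraries but only between 2.50 and 3.27 in DOX libraries, so depth and treatment cannot be told apart in that line. Values between replicates correlated across regions at 0.979 to 0.987 in DU-145, 0.979 to 0.985 in BT-549 vehicle libraries and 0.921 to 0.932 in BT-549 DOX libraries. Epithelial, mesenchymal, prostate and mammary markers were looked up among the broad regions. KRT8, a keratin of simple epithelia, had a start in a broad region of DU-145, and no other marker of the 4 lists had a start in a broad region of either line.

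Most accessible regions are short and mark a promoter or an enhancer. Wide stretches of accessible chromatin are known from genes that are read heavily or are induced within minutes, where the promoter, the gene body and the sequence past the 3′ end can all be open, and from clusters of neighbouring enhancers. Transcribing polymerase runs past the 3′ end of a gene before it is released, and the chromatin there can open with it.

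The sequences below are those of the 100-bp bin with the highest mean coverage in 8 broad regions on which the results turn, in hg38 on the plus strand. They are shown so that the DNA at the top of each region can be seen, and capitals mark the AP-1 motif TGACTCA or TGAGTCA, searched on both strands, where a bin held one. The first bin lies upstream of the start of EGR1, an immediate early transcription factor, and it was the highest bin of the EGR1 region in both lines.
EGR1, chr5:138465001-138465100: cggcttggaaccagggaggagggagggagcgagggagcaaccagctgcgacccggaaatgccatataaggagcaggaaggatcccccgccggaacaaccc
SLC6A3, DU-145, chr5:1446201-1446300: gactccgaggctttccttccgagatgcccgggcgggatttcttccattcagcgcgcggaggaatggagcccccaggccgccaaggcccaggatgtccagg
TENT5B, DU-145, chr1:27012901-27013000: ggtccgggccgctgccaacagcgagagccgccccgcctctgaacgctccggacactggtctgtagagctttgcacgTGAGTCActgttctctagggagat
LINC03061, DU-145, chr13:109272101-109272200: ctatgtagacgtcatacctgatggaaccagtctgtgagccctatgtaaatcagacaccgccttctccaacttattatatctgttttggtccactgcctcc
IFIT2, BT-549, chr10:89310201-89310300: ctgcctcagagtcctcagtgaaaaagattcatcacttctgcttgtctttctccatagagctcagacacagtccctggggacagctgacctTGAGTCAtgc
MX1, BT-549, chr21:41460101-41460200: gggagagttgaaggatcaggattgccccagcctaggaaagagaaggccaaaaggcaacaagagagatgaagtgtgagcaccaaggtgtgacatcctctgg
KLF16, BT-549, chr19:1863901-1864000: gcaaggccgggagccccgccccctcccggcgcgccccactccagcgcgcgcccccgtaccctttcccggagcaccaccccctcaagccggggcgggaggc
EMB, BT-549, chr5:49658101-49658200: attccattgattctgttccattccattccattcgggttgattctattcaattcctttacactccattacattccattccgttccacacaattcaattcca
These bins ranged from 37% GC at EMB to 81% at KLF16. The last one is a run of the short repeat ATTCC, and the region around it held 109 copies of ATTCC or its complement GGAAT per kb in both lines, where the next highest broad region held 4.79 per kb in DU-145 and 4.07 in BT-549. It lies 734292 bp past the 3′ end of EMB, the protein-coding gene with the nearest start, and reads from such repeats can be placed at more than one site, so its values are uncertain.

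The typical broad region was 48 bins wide in both lines (median), or 4.8 kb, against a median of 7 bins over all regions of DU-145 and 8 of BT-549. In DU-145, 188 regions had 50 or more bins and 15 had 100 or more, and in BT-549 the numbers were 161 and 10. The widest regions of DU-145 were 18.1 kb each. One covered TENT5B, a noncanonical poly(A) polymerase, with the whole of TRNP1 beside it on chromosome 1, and the other covered NEAT1, the RNA scaffold of paraspeckles, on chromosome 11. The widest region of BT-549 was 21.7 kb and held MIRLET7A3, MIR4763 and MIRLET7B in the let-7 host gene MIRLET7BHG on chromosome 22. Broad regions held 3.33% of all bins in DU-145 and 4.21% in BT-549, and between 4.66% and 5.32% (DU-145) or between 5.08% and 5.45% (BT-549) of the summed coverage of a library.

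At the width limit the regions were much alike. In DU-145, 28 regions had 40 bins and 33 had 39, with median vehicle coverages of 49.6 and 43.7 fragments per base and median log2 changes with DOX of -0.18 and -0.25. In BT-549, 30 regions had 40 bins and 37 had 39, with median vehicle coverages of 17.5 and 18.6 and median log2 changes of 0.15 and 0.18.

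**Figure D1:**
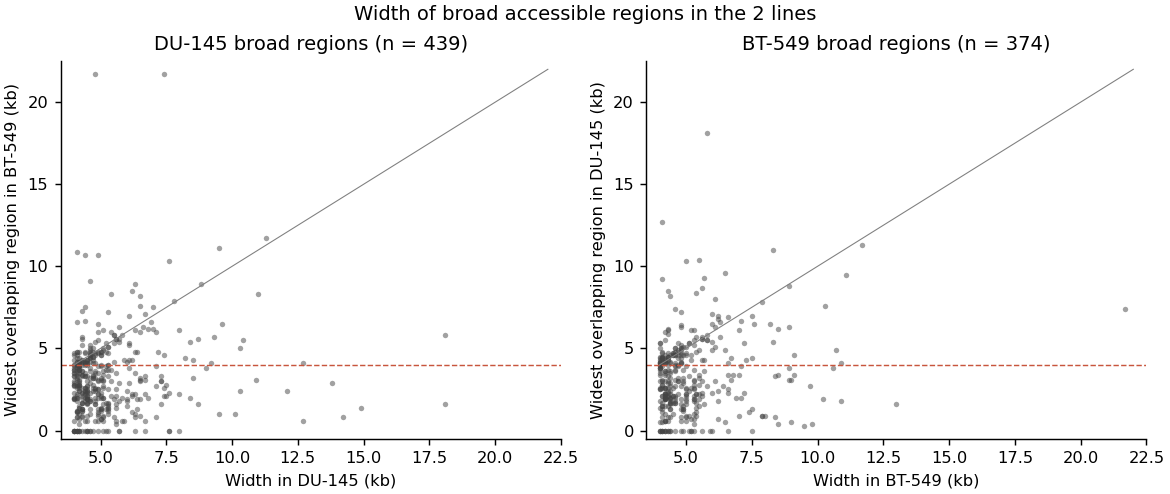
Each point is a broad region of DU-145 (left, n = 439) or BT-549 (right, n = 374); the x axis gives its width in kb and the y axis the width in kb of the widest region of the other line that overlaps it, with 0 for none. Widths reached 18.1 kb in DU-145 and 21.7 kb in BT-549, 31 and 25 regions lay at 0, and many points lay well below the width in the region's own line.

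Broad regions were mostly promoters with the DNA on both sides. A start of a protein-coding gene lay inside 346 of them in DU-145 (78.8%, against 18.8% of all autosomal regions) and inside 266 in BT-549 (71.1%, against 29.2%), for 418 and 333 genes. Wider regions hold more of any feature, so these shares were not tested against one another. A whole protein-coding gene fitted inside 50 regions of DU-145 (11.4%) and 49 of BT-549 (13.1%), against 0.170% and 0.302% of all regions. In regions with a single canonical start, the region reached a median of 1912 bp upstream and 2964 bp downstream in DU-145 (258 regions) and 2063 bp and 2727 bp in BT-549 (185 regions). The highest bin lay within 500 bp of that start in 150 of the 258 (58.1%) and in 116 of the 185 (62.7%).

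The remaining regions differed between the lines in where they lay. Each region was assigned in turn to the start of a canonical protein-coding transcript, to a 3′ end without a start, to the 10 kb past a 3′ end, to the rest of a gene body, or to none of these. In DU-145 these classes held 296, 27, 36, 38 and 42 regions. In BT-549 they held 214, 65, 36, 29 and 30, so 101 of 374 broad regions lay over or just past a 3′ end, against 63 of 439 in DU-145. Shares of these classes over all regions are not set beside these counts. The width in BT-549 came mainly from vehicle libraries, as described below, so the difference between the lines is a description.

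Broad regions were rich in G and C. Their median GC content was 58.5% in DU-145 and 57.1% in BT-549, against 47.7% and 51.4% over all autosomal regions, and the ratio of observed to expected CpG was 0.533 and 0.487 against 0.214 and 0.280. The AP-1 motif was present in 2.01% of their bins in DU-145 and 1.76% in BT-549, less often than in all autosomal bins of the tables (4.93% and 3.10%). The interferon-stimulated response element, searched as GAAANNGAAA on both strands, was present in 0.957% and 0.928% of their bins against 1.21% and 1.38% of all bins. These shares are descriptions, and a match is not a binding site.

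Immediate early genes, which answer a stimulus without new protein synthesis, were frequent among the broad regions. Of the 27 genes of this list, 15 had a start in a broad region of DU-145 (55.6%) and 8 in BT-549 (29.6%), against 2.15% and 1.70% of all 19103 autosomal protein-coding genes. They included the AP-1 subunits FOS, FOSL2, JUN and JUNB, the phosphatases DUSP1 and DUSP5, the mRNA-decay factors ZFP36 and ZFP36L1, EGR1, IER2 and MYC in DU-145. In BT-549 they were JUN, JUNB, EGR1, IER2, KLF10, MYC, DUSP1 and ZFP36L1. Targets of YAP and TEAD, the effectors of the Hippo pathway, had 5 of 15 starts in broad regions of DU-145 (AMOTL2, CCN1, CRIM1, PTPN14 and TGFB2) and 2 of 15 in BT-549. Genes of TGF-beta and BMP signalling had 4 of 16 (TGIF1 and the inhibitors of differentiation ID1, ID2 and ID3) and 5 of 16 (TGIF1, SKI, BMP4, ID1 and ID3). Housekeeping genes had 3 of 13 in DU-145 (among them GAPDH and ENO1) and 0 of 13 in BT-549.

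Replication-dependent histone genes, short genes that lie in clusters, had 6 of 69 starts in broad regions of DU-145 and 16 of 69 in BT-549. Of 39 HOX genes, 0 had a start in a broad region of DU-145 and 2 in BT-549 (HOXA9 and HOXA10). Of 167 other developmental factors, 8 had one in each line, among them FOXA1 and NKX2-1 in DU-145 and ZIC2 and ZIC5 in BT-549. C2H2 zinc finger genes had 6 and 3 of 497. Of 21 long noncoding RNA genes, 5 had a start in a broad region of each line. Of 20 chromatin regulators, 2 and 1 did, with KDM6B, a histone demethylase, in both lines. Of 20 cytoskeleton and adhesion genes 3 and 1 did, with ACTB, cytoplasmic actin, in both lines, and of 14 cell cycle genes 2 did in each line. Of 8 genes listed for NOTCH signalling with EGR1, LY6E and MUC1, HES1, a NOTCH effector, and EGR1 did in both lines and LY6E, a GPI-anchored surface protein, did in BT-549.

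Most broad regions were accessible in the other line too, usually over a shorter stretch. Of the 439 regions of DU-145, 408 (92.9%) had at least 1 bin in the table of BT-549, 323 (73.6%) had at least 50% of their bins there and 141 (32.1%) at least 90%. Of the 374 regions of BT-549 the numbers were 349 (93.3%), 279 (74.6%) and 129 (34.5%). Over all autosomal regions, 39.8% of those of DU-145 and 69.4% of those of BT-549 had a bin in the other table. A region of 40 or more bins in the other line lay opposite 147 regions of DU-145, and some regions of BT-549 faced more than 1, which gave 147 pairs. In 181 regions of DU-145 and 138 of BT-549, the other line had several separate regions in place of 1.

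The broad regions with no bin in the other table were named for what they cover. In DU-145 these 31 included a region in the body of TXNRD1, a thioredoxin reductase (80 bins), one in SFTA3 past the 3′ end of NKX2-1, a lung and thyroid transcription factor (76 bins), the start of SLC6A3, the dopamine transporter (67 bins), and the 3′ end of SCN3B, a sodium channel subunit (63 bins). In BT-549 these 25 included a region past SESN2, a stress-induced regulator of mTORC1 (75 bins), the ends of MROH1 and BOP1 (66 bins), and the 3′ end of IFIT3, an interferon-induced gene, beside LIPA (59 bins). KRT7, a keratin, shows how a locus could be broad in one line only: 149 bins over its 3′ end and KRT86 were accessible in DU-145, of which 9.40% had a counterpart in BT-549, and no region there was wider than 14 bins.

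With DOX, 51 broad regions of DU-145 were higher and 244 lower by edgeR's quasi-likelihood test (adjusted p under 0.05), against 30% of all regions higher and 25.5% lower. In BT-549, 146 were higher and 93 lower, against 15.9% and 14.8%. The median log2 change was -0.24 in DU-145 (0.05 over all regions) and 0.13 in BT-549 (0.00 over all regions). These directions depended on how the libraries were scaled. When the scaling was allowed to vary with coverage (cyclic loess), 257 were higher and 45 lower in DU-145 with a median of 0.24, and 56 were higher and 155 lower in BT-549 with a median of -0.13. With library totals, the counts were 113 and 164 in DU-145 and 104 and 118 in BT-549. With the GC trend removed, they were 97 and 173 in DU-145 and 82 and 111 in BT-549. Therefore a change is called stable below only where its sign and its call were the same under all 5 scalings. This held for 33 higher and 45 lower regions in DU-145 and for 50 higher and 81 lower regions in BT-549. No share of stable calls over all regions is set beside these counts, so no excess is read from them.

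At a fold change of at least 2, 6 regions were higher and 8 lower in DU-145, against 19.7% and 6.94% of all regions. In BT-549, 5 were higher and 50 lower, against 6.12% and 10.2%. All 69 of these were stable, although how many reached 2-fold moved with the scaling, from 2 to 14 falls and 5 to 14 rises in DU-145 and from 41 to 61 falls and 1 to 5 rises in BT-549 (3 rises without vehicle replicate 1), and in each of them the vehicle and DOX libraries did not overlap. The width of the broad regions of BT-549 came mainly from vehicle libraries, as described below, so regions that fell were the more likely to be chosen. In DU-145 a region that was high in either group could reach the width limit through that group. In 318 broad regions of DU-145 (72.4%) and 236 of BT-549 (63.1%), the log2 change was under 0.5 in size.

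**Figure D2:**
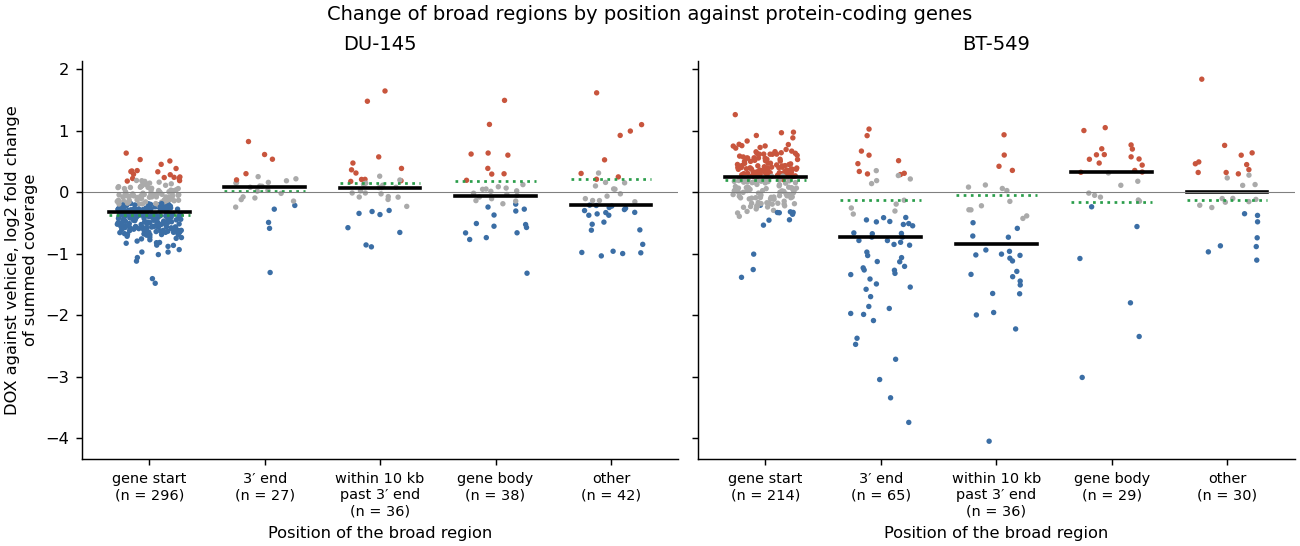
Each point is a broad region; the y axis gives the log2 fold change of its summed coverage with DOX and the x axis its position against protein-coding genes, with n for each class; red and blue points were called higher and lower, grey points were not called, black bars are medians of the broad regions and dotted lines medians of all autosomal regions of the class. In BT-549 the regions over a 3′ end (n = 65) and past one (n = 36) had medians of -0.73 and -0.83, while the 214 regions at a start had a median of 0.26; in DU-145 the medians were 0.08, 0.08 and -0.32.

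In BT-549 the position of a broad region went with the direction of its change. Of the 101 regions over or just past a 3′ end, 67 were lower with DOX and 14 higher, and 42 fell by 2-fold or more, so these classes held 42 of the 50 large falls. Of the 67, 62 were stable. Over all 5575 autosomal regions of BT-549 in these classes, 13.6% were lower and 8.57% fell by 2-fold or more. The median log2 change was -0.73 over the 101 broad regions and -0.05 over all 5575. These counts are a description, since the width of 374 broad regions of BT-549 came mainly from vehicle libraries, where 322 to 356 were 1 unbroken peak against 11 to 28 with DOX, and a region that was high in vehicle was the more likely to be chosen. Of the 214 broad regions at a start, 106 were higher and 12 lower, against 27.2% and 3.72% of all autosomal regions of BT-549 at a start, with a median of 0.26 that became -0.02 under cyclic loess. Regions at starts had a higher GC content (median 59.65%) than those over 3′ ends (52.2%) or past them (52.5%), and the part of GC content in this contrast was not tested beyond the scaling that removes its trend.

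In DU-145 the same classes did not stand apart in that way. Of 63 regions over or past a 3′ end, 16 were higher and 13 lower, with a median of 0.08. Over all regions of DU-145, 30% were higher and 25.5% lower. Of 296 regions at a start, 195 were lower and 18 higher, with a median of -0.32 that turned to 0.19 under cyclic loess. Among all 11402 autosomal regions at a start in DU-145, the median was -0.37, a larger fall than in the broad ones. The called shares of all regions at a start are not given, so no excess is read from the 195.

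Several of the largest falls in BT-549 lay at genes known as interferon-stimulated genes. Regions that touched the interferon list given below made up 14 of the 50 falls of 2-fold or more. At the 3′ end of IFIT2, an interferon-induced inhibitor of translation, the values were 16.9, 15.1 and 17.1 in vehicle and 1.39, 0.575 and 1.58 with DOX (log2 change -3.74, SE 0.186, adjusted p = 2.51e-14). At the 3′ end of MX1, an antiviral GTPase, they were 25.9, 29.0 and 26.6 in vehicle and 3.17, 2.34 and 2.57 with DOX (log2 change -3.34, SE 0.132, adjusted p = 4.48e-16). In both regions every DOX library was below every vehicle library. Because broad regions of BT-549 were wide mainly in vehicle libraries, the p-values and lack of overlap of falls in this line are descriptions. The 3′ end of IFIT3 fell by 3.04 on the log2 scale, and the region over IRF1, a transcription factor induced by interferon, fell by 2.47 over 109 bins.

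A list of 40 interferon-stimulated genes was drawn up after these values had been seen, so its counts are a description only. In BT-549, 15 of its genes were touched by 19 broad regions, of which 16 were lower and stable, 0 were higher, and 14 fell by 2-fold or more. The median log2 change was -1.95 (-2.12 under cyclic loess). Besides those above they lay over ZC3HAV1, IFI6, PLSCR1, OAS2, LY6E, WARS1, PARP14 and HELZ2. LY6E read 31.6, 32.6 and 30.6 in vehicle and 9.11, 6.18 and 9.08 with DOX (log2 change -1.95, SE 0.107, adjusted p = 2.30e-13), again with no overlap. For this list and those below, the shares over all regions of BT-549 were 14.8% lower, 15.9% higher and 10.2% lower by 2-fold or more.

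Falls in BT-549 were not limited to interferon genes. The body of SOD2, the mitochondrial superoxide dismutase and a target of NF-kB, read 22.2, 18.5 and 22.8 in vehicle and 3.20, 1.60 and 3.0 with DOX in a region of 85 bins (log2 change -3.01, SE 0.148, adjusted p = 2.37e-14). On a list of 18 NF-kB targets, also drawn up after the values were seen, 5 genes were touched by 6 regions, of which 5 were lower and stable. They lay over SOD2, NFKBIZ, NAMPT and CXCL2. On a list of 22 genes of amino acid and unfolded protein stress, drawn up in the same way, 10 genes were touched by 11 regions, of which 8 were lower and stable and 2 higher. Among the lower ones were the 3′ ends of SLC3A2 and SLC38A2, both amino acid transporters, with log2 changes of -1.54 and -1.41, and the region just past CHAC1, a glutathione-degrading enzyme, with -1.33. Genes of general metabolism were also present, such as SCD, a fatty acid desaturase (-1.70), MAT2A, which makes S-adenosylmethionine (-1.34), and ENO1, the glycolytic enolase (-1.06).

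**Figure D3:**
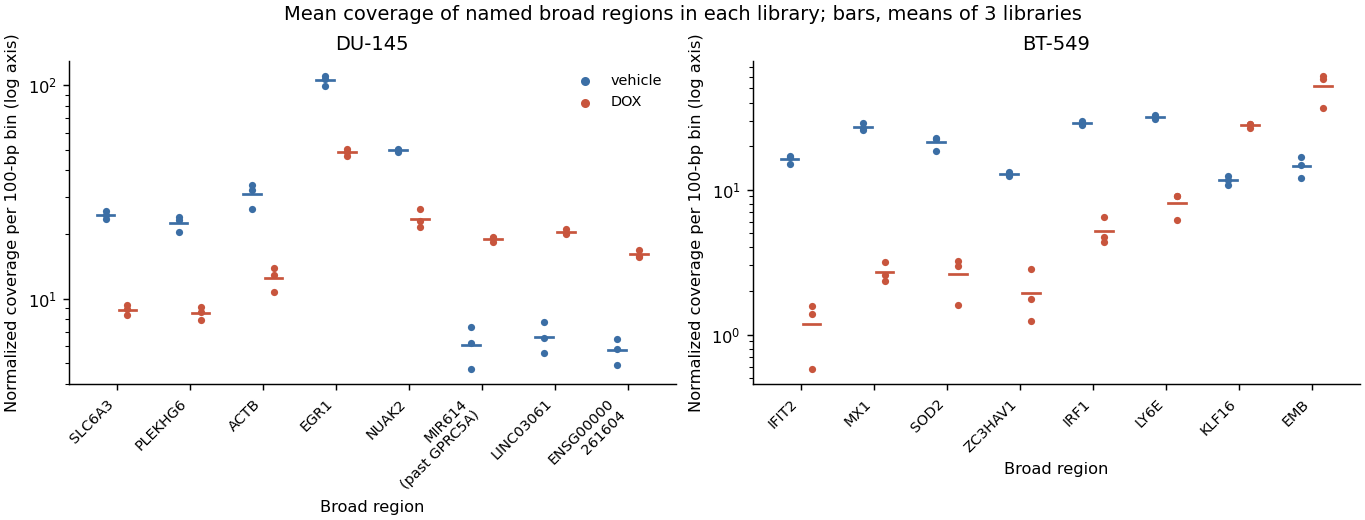
Each point is the mean normalized coverage per bin of a broad region in 1 library (log axis), with vehicle and DOX libraries side by side and a bar at the mean of 3; the regions are 8 of DU-145 (left) and 8 of BT-549 (right). At MX1 in BT-549 the vehicle libraries sat between 25.9 and 29.0 and the DOX libraries between 2.34 and 3.17, and at MIR614 in DU-145 the vehicle libraries sat between 4.66 and 7.40 and the DOX libraries between 18.4 and 19.5.

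The rises in BT-549 were smaller. KLF16, a zinc finger factor, read 11.6, 12.4 and 10.8 in vehicle and 28.6, 26.5 and 28.6 with DOX at its start (log2 change 1.26, SE 0.103, adjusted p = 4.63e-10), and the groups did not overlap. Regions over BCL9L, a cofactor of beta-catenin, CIRBP, a cold-induced RNA-binding protein, and LEMD1 rose by log2 changes of 1.05, 1.03 and 1.0. The largest rise was in the ATTCC repeat near EMB, with 14.8, 12 and 16.8 in vehicle and 61.2, 36.8 and 58.0 with DOX (log2 change 1.84, SE 0.132, adjusted p = 4.06e-11). The same repeat rose in DU-145, from 16.5, 18.7 and 16.3 to 41.3, 29.6 and 40.2 (log2 change 1.10, SE 0.099, adjusted p = 4.86e-11), and in both lines the second DOX library was the lowest of the 3.

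The largest falls in DU-145 were at other genes. SLC6A3 read 24.7, 25.9 and 23.7 in vehicle and 8.37, 9.33 and 8.92 with DOX at chr5:1444401-1451100 (log2 change -1.48, SE 0.087, adjusted p = 2.87e-15). PLEKHG6, a guanine nucleotide exchange factor, read 20.6, 23.3 and 24.2 in vehicle and 7.97, 9.10 and 8.65 with DOX over 103 bins (log2 change -1.40, SE 0.084, adjusted p = 3.86e-15). The groups did not overlap in either. One of the regions in the body of LPCAT1, a phospholipid-remodelling enzyme and the neighbour of SLC6A3, fell by 1.32 on the log2 scale, the 3′ end of ACTB by 1.3, the start of NUAK2, a kinase of the AMPK family, by 1.06, and the start of SEMA4B, a semaphorin, by 1.01.

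EGR1 was the largest fall among immediate early genes of DU-145. At chr5:138463201-138472000 it read 99.6, 107 and 111 in vehicle and 46.8, 50.4 and 48.9 with DOX (log2 change -1.12, SE 0.064, adjusted p = 1.18e-15). Of the 16 broad regions that touched genes of this list in DU-145, 13 were lower and 1 higher, where 55.6% of all broad regions and 25.5% of all regions were lower, with a median of -0.53 that became -0.01 under cyclic loess, and 5 lower regions were stable (EGR1, NR4A1, MYC, KLF6 and DUSP5). NR4A1, an orphan nuclear receptor, fell by 0.82 on the log2 scale and MYC by 0.75. The region with the end of FOSL1 and with CCDC85B rose by 0.51 and was stable. In BT-549, 10 regions touched the list, 6 were higher and 2 lower, against 146 and 93 of all 374 broad regions, and the stable ones were KLF10 (0.70), ZFP36L1 (0.56) and the 3′ end of KLF6 (-1.20). The directions of the other BT-549 members of the list were not kept as calls under all scalings.

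Of the 6 rises of 2-fold or more in DU-145, 3 lay in or past GPRC5A, an orphan receptor of epithelia. A region of 57 bins that begins 164 bp past its 3′ end and holds MIR614 read 4.66, 6.18 and 7.40 in vehicle and 19.5, 19.2 and 18.4 with DOX (log2 change 1.65, SE 0.115, adjusted p = 1.38e-13). Regions of 41 and 40 bins in its body rose by log2 changes of 1.5 and 1.1, a wider one of 75 bins in its body by 0.20 (not stable), whereas the region at its start was lower at -0.55 under the main scaling and at -0.09 under cyclic loess. LINC03061, a noncoding gene, read 5.55, 7.77 and 6.54 in vehicle and 20, 20.3 and 21.2 with DOX (log2 change 1.62, SE 0.104, adjusted p = 1.85e-14). In each of these regions the DOX libraries were all above the vehicle libraries. Regions were kept where any 3 libraries had a peak, so one that was high with DOX could reach 40 bins through the DOX libraries. The p-values and lack of overlap of rises in DU-145 are therefore descriptions. KRT8 rose from 26.4, 28 and 27.0 to 48.0, 57.9 and 48.8 (log2 change 0.93, SE 0.084, adjusted p = 5.37e-11) and was stable.

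The changes along a region were not even. At EGR1, coverage in the 1000 bp past the 3′ end fell from 74.5, 98.0 and 101 in the vehicle libraries of DU-145 to 6.96, 5.03 and 8.43 with DOX. Coverage within 500 bp of the start fell much less, from 271, 262 and 277 to 156, 159 and 152. In BT-549 the past-end coverage fell from 46.7, 50.4 and 42.3 to 8.48, 7.43 and 11.8, while the start read 91.7, 94.3 and 93.0 in vehicle and 99.1, 121 and 104 with DOX. The log2 ratio of past-end to start coverage moved by -2.78 in DU-145 and by -2.44 in BT-549, and in both lines it was lower in every DOX library than in every vehicle library. Summed over the whole region, the change in BT-549 was only -0.21 (SE 0.080, adjusted p = 0.047), and the call was lost with RLE size factors (adjusted p = 0.0529, edgeR), DESeq2 (0.0661), the mean over bins (0.735, edgeR) and without vehicle replicate 1 or 2 or DOX replicate 1 or 3 (0.0558 to 0.232, edgeR). The highest bin of the region was higher with DOX (0.33, adjusted p = 0.0309, edgeR).

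**Figure D4:**
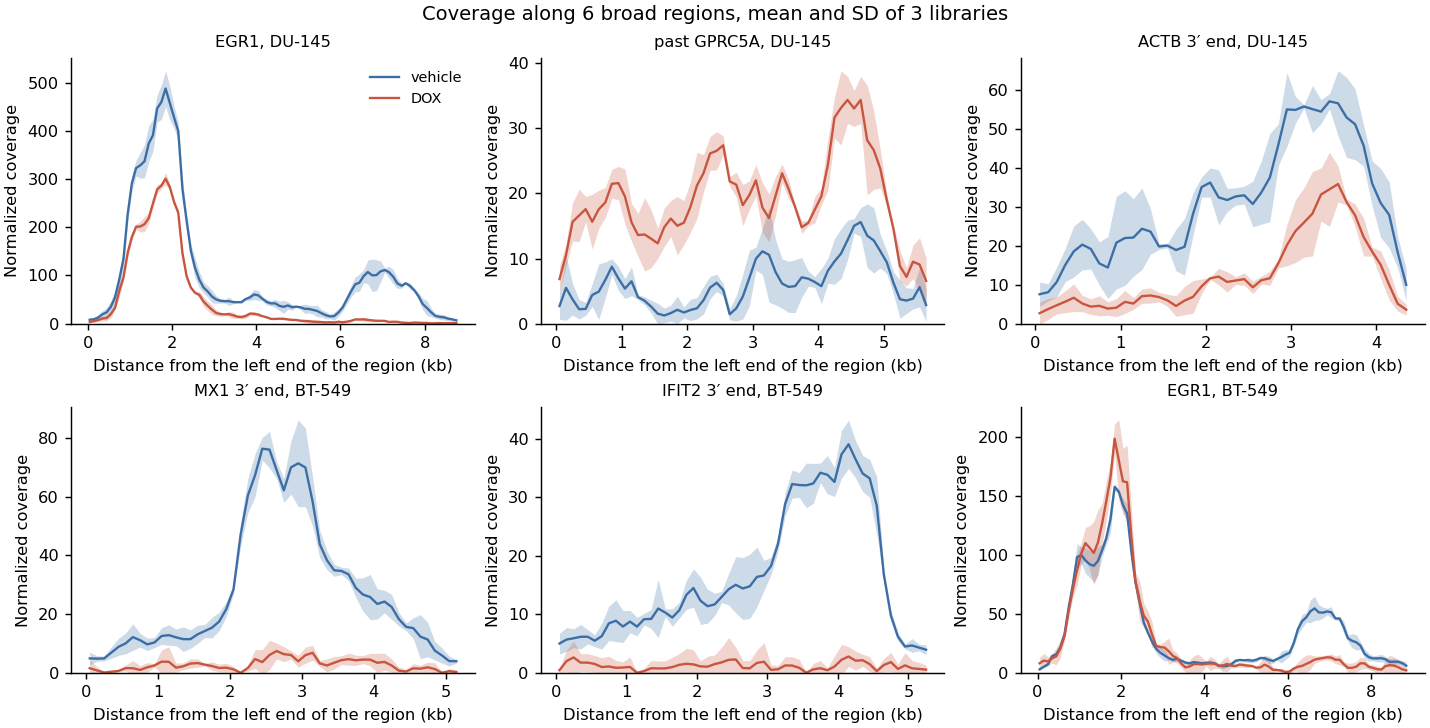
Normalized coverage (y axis) along 6 broad regions against the distance from the left end of the region in kb (x axis); lines are means of 3 vehicle or 3 DOX libraries and bands are SDs. At EGR1 the peak over the start remains with DOX in both lines while the right-hand part drops to between 5.03 and 11.8 in the 1000 bp past the gene, and at the 3′ ends of MX1 and IFIT2 in BT-549 the whole region drops.

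The same ratio was taken for all protein-coding genes of at least 1500 bp that lay wholly inside a region. This comparison was added after the profiles had been seen and is a description. A gene entered only where its region reached past its 3′ end, and in BT-549 the width came mainly from vehicle libraries. Genes whose past-end window fell with DOX were thus the more likely to be included in that line. In DU-145 the reach could come from either group. In BT-549, 34 such genes lay in 33 broad regions. The ratio was lower in every DOX library than in every vehicle library for 14 of them and higher for 3. Over all 46 genes inside any region the shares were 34.8% and 8.70%. The 34 genes are among these 46, so the shares are not a separate background. The median change was -0.41. Besides EGR1, the ratio fell at ARHGDIA, a GDP-dissociation inhibitor (-2.16), RPL36, a ribosomal protein (-1.74), the chemokine gene CXCL2 (-1.65), CCN1, a matricellular protein (-1.57), and ACTB (-1.43). At CCN1 the start rose from 29.5 to 55.6 while the past-end window fell from 52.3 to 32.4, as means of 3 libraries. At ACTB they were 48.5 to 76.6 and 51.5 to 30.3.

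In DU-145, 36 such genes lay in 35 broad regions, and the ratio was lower throughout for 6 and higher throughout for 14. Over all 47 genes, which include these 36, the shares were 19.1% and 31.9%. The median change was 0.33. The 6 lower genes were EGR1 (-2.78), ACTG1 (-0.71), TENT5B (-0.62), CRIP1 (-0.61), ENSG00000273047 (-0.58) and HES7 (-0.42). The ratio rose at MMP24OS (1.62), DUSP1 (1.47), CCN1 (1.24), NKX2-1 (0.98) and GAPDH (0.84). CCN1 thus moved in opposite directions in the 2 lines, with a start that fell from 65.3 to 43.5 and a past-end window that rose from 24.1 to 38.0 in DU-145. At DUSP1 the start fell from 175 to 120.0 and the past-end window rose from 12.8 to 25.3.

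Single bins were tested with edgeR at the cutoffs of the study, which had used DESeq2. These were a fold change of at least 2 with an adjusted p under 1e-05 in DU-145 and 0.01 in BT-549. In DU-145, 299 bins of broad regions opened (1.27%) and 572 closed (2.42%), against 4.09% and 2.13% of all bins. In BT-549, 468 opened (2.35%) and 1520 closed (7.63%), against 2.05% and 2.87%. The closing share of BT-549 is a description, since its broad regions were wide mainly in vehicle libraries. In both lines the closing bins lay inside rather than at the edges of the regions. Of the core bins, 2.69% closed in DU-145 and 9.03% in BT-549, against 1.25% and 1.55% of the first and last 5 bins, whose coverage was lower. In 294 broad regions of DU-145 and 173 of BT-549 no bin passed. More bins closed than not in 2 regions of DU-145 and 11 of BT-549. By DESeq2, the tool of the study, 75 bins of broad regions opened and 223 closed in DU-145, and 210 and 475 in BT-549. Shares over all bins by DESeq2 are not given.

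The edges of the broad regions carried less coverage than their cores. The mean of the first and last 5 bins was 2.60 to 2.87 times below that of the other bins in the libraries of DU-145, and 1.92 to 2.13 times below it in BT-549 (medians over regions). The median change of the log2 ratio with DOX was 0.04 in DU-145 and 0.05 in BT-549. By limma, 51 of the 439 regions of DU-145 had a higher ratio with DOX and 21 a lower one. Over all 11360 regions tested the shares were 12% and 2.91%, so a higher ratio was about as frequent there as in broad regions. Without any one DOX library these counts were 27 to 29 higher and 7 to 12 lower. The edges of KRT7 at its start (1.20), KLF6, a Kruppel-like factor (1.17), and TNIP1, an inhibitor of NF-kB (1.15), gained most against their cores. The edges of TLE1, a corepressor (-1.04), SPTBN1, a spectrin (-0.85), and PIM3, a kinase (-0.84), lost most.

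In BT-549, 10 regions had a higher ratio and 3 a lower one by limma, against 0.940% and 0.485% of 9686 regions. The largest were at IFI6 (1.73, in the region named after LINC02574), IFIT2 (1.62) and LY6E (1.57), all in regions whose coverage fell with DOX. At IFIT2 the edges read 1.79, 0.0714 and 1.83 and the core 1.29, 0.693 and 1.52 with DOX, levels at which the pseudocount of 1 draws the log2 ratio towards 0. The 3 lower ones were at IQCJ-SCHIP1 (-1.09), PABPC1 (-0.98) and E2F3 (-0.79). Neither count was stable, since leaving out any one vehicle library took both to 0.

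**Figure D5:**
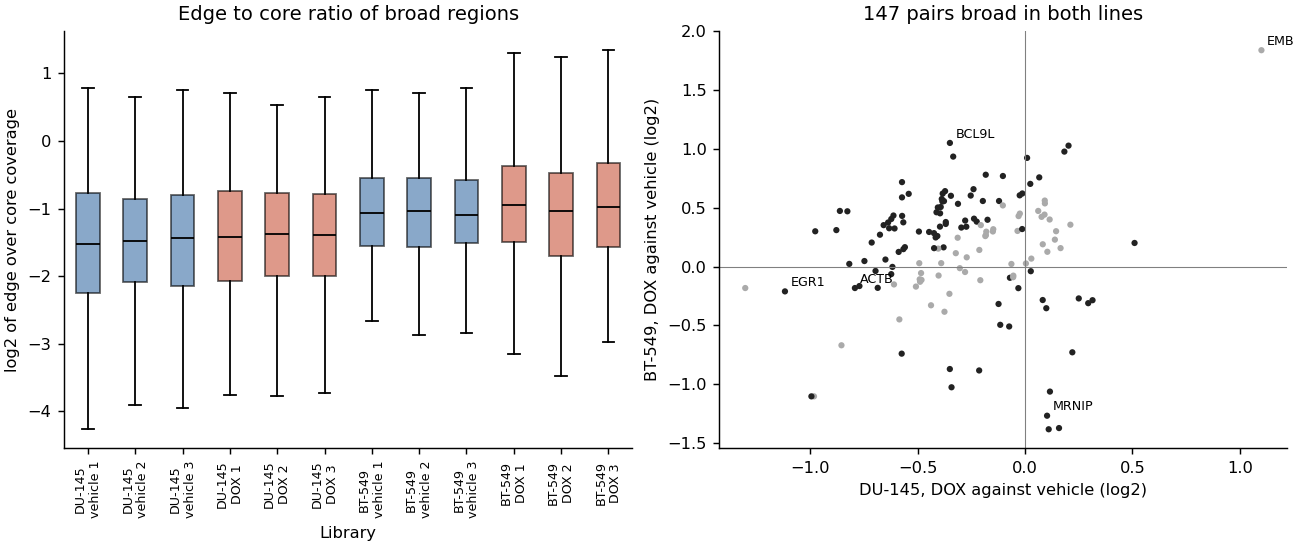
Left, the log2 ratio of edge to core coverage of the broad regions in each of the 12 libraries, with boxes for quartiles, lines for medians, whiskers to 1.5 times the box height and points beyond them not drawn; right, with dark points where the interaction was called, the log2 change with DOX in BT-549 (y axis) against that in DU-145 (x axis) for the 147 pairs broad in both lines. The ratios of vehicle and DOX libraries lay at nearly the same height within a line. Edges lay 2.60 to 2.87 times below cores in DU-145 and 1.92 to 2.13 times in BT-549. Under the main scaling, 48 pairs were lower in DU-145 and higher in BT-549 while 0 were the reverse, and other scalings were not counted.

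The peak calls of single libraries gave another view of width. In DU-145, a single peak covered at least 90% of the bins in 136, 363 and 182 regions in the vehicle libraries and in 214, 378 and 296 in the DOX libraries. In BT-549 the numbers were 348, 356 and 322 in vehicle but 11, 28 and 21 with DOX, and 34, 21 and 29 regions had no peak at all in the DOX libraries. The DOX libraries of BT-549 had 30450 to 39837 peaks in all, against 65204 to 93929 in vehicle libraries, with the lower totals given above. The part of depth in the narrower calls was not tested. A region was kept by the authors where at least 3 libraries had a peak, and in BT-549 the long unbroken peaks were mostly in vehicle libraries.

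The effect of DOX was compared between the lines over the bins that both tables hold. Among the 147 pairs broad in both lines, the log2 change was higher in BT-549 than in DU-145 for 73 and lower for 22 by the interaction test of edgeR, against 19.2% and 21.1% of all 32671 pairs of overlapping regions. With library totals the counts were 45 and 37. In each line's own fit under the main scaling, 48 pairs were lower in DU-145 and higher in BT-549. Another 10 were lower in both and 4 were higher in both. These pairs were not counted under cyclic loess, which turned the medians of the broad regions to 0.24 in DU-145 and -0.13 in BT-549. Shares over all pairs are not given, so the opposite directions are a description of the main scaling only. HES1 differed by 1.04 (SE 0.109, adjusted p = 4.58e-10), with -0.57 in DU-145 and 0.72 in BT-549, where the DU-145 value was -0.04 under cyclic loess. YWHAZ, a 14-3-3 protein, differed by 1.03 and NR3C1, the glucocorticoid receptor, by 1.07.

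The regions that were lower in both lines included noncoding RNA loci. NEAT1 changed by -0.58 in DU-145 (181 bins) and -0.74 in BT-549 (58 bins), and MALAT1, another abundant nuclear RNA, by -0.35 and -0.87. The let-7 host gene changed by -0.98 in its 74-bin region of DU-145 and -1.10 in BT-549. Over the bins that both tables hold, the change was lower in BT-549 by edgeR's interaction test at NEAT1 (-0.78, adjusted p = 8.07e-05) and MALAT1 (-0.70, adjusted p = 0.000194). Under cyclic loess NEAT1 and MALAT1 of DU-145 were at 0.13 and 0.16, whereas the let-7 locus kept its direction and its call under all 5 scalings in both lines. The BT-549 region of 217 bins read 12.4, 13.1 and 10.3 in vehicle and 5.33, 5.43 and 5.92 with DOX, and the groups did not overlap.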

How the data were processed

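The 2 tables of 100-bp bins and the 12 peak lists were deposited by the authors. Per their methods and processing notes, reads were aligned with bwa-mem, duplicates were handled with Picard, and MACS2 2.2.7.1 called peaks at a q cutoff of 0.05 (MACS3 is also named). Regions present in at least 3 replicates were divided into bins. The deposited bin values are mean fragment coverages, treated as estimated counts. They are not whole, as had been assumed, and were rounded before the count tests. The deposited peak lists give a fold enrichment (a ratio over background), a −log10 p and a −log10 q. Only their positions were used.

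Bins were summed per region, and all regions of a line with a total of at least 10 over 6 libraries were fitted with edgeR 4.0.16 in R 4.3.3 (quasi-likelihood, robust, TMM, Benjamini-Hochberg). The interaction was fitted with edgeR over bins held by both tables, and edge ratios with limma 3.58.1 (pseudocount 1, regions of at least 15 bins). DESeq2 1.42.0 served as an alternative. Adjusted p-values in the text come from these fits. Normalized coverage is the value scaled to the mean effective library size. Other scalings were RLE, library totals, cyclic loess and a GC trend. The scripts were tested on simulated data. Genes were read from GENCODE v44 on hg38.

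Regions were named for the genes with a start inside, otherwise for the gene they lie in or the nearest. The text names the widest regions, the largest rises and falls of coverage and of edge ratio, the widest ones missing from the other table, those broad in both lines and those over listed genes. Further genes were named after their values were seen. A few items are not reported here. The members and lists were chosen with earlier results of these data known, and the interferon, NF-kB and stress lists, the 2-fold counts and the start and past-end windows were added after values were seen. Samples with the same replicate number did not deviate together (correlations -0.023 to 0.063), so the numbers do not pair them.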

Additional observations from a re-analysis of the deposited data

Results flagged for a closer look

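The effect of DOX differed between the lines, by the interaction test of edgeR, in 95 of the 147 pairs of regions broad in both. It was above that of DU-145 in BT-549 for 73 and below it for 22. Over all 32671 pairs of overlapping regions, it was above in 19.2% and below in 21.1%. The pair furthest below was named MCL1, an inhibitor of apoptosis, in DU-145 and RN7SL600P in BT-549. Its difference was -1.93 (SE 0.160, adjusted p = 1.46e-12), with 0.16 in DU-145 and -1.37 in BT-549. It was separate from the DU-145 region at the start of MCL1. Next were MRNIP beside the end of SQSTM1 with -1.67 (adjusted p = 5.67e-12) and a pair named MIR6728 in DU-145 and ENO1 in BT-549 with -1.54 (adjusted p = 3.91e-09). The latter was separate from the DU-145 region at the start of ENO1. The pairs furthest above were at BCL9L with 1.28 (adjusted p = 2.72e-11), the start of ACTB with 1.08 (adjusted p = 1.07e-09) and NR3C1 with 1.07 (adjusted p = 4.18e-10). The pair of the 3′ end of ACTB in DU-145 with the same BT-549 region differed by only -0.00162 (adjusted p = 0.996). With library totals the counts were 45 above and 37 below. In BT-549 depth went with treatment, and broad regions were wide mainly in vehicle libraries. The p-values of pairs that fell in BT-549 are therefore descriptions.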

How the results depend on the processing

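In DU-145, the 51 higher regions became 113 with library totals, 257 with cyclic loess, 97 with the GC trend removed, 12 with the mean over bins, 150 at 30 or more bins and 27 at 50 or more. The 244 lower became 45 with cyclic loess, 148 with the mean over bins, 742 at 30 bins and 103 at 50. The 6 rises of 2-fold became 14 with cyclic loess and at 30 bins and 3 at 50, and the 8 falls 14 with RLE and with DESeq2, 4 with library totals, 2 with cyclic loess and 13 at 30 bins. The median of -0.24 became -0.0470 with library totals, 0.24 with cyclic loess and -0.0860 with the GC trend removed. The 871 changed bins became 298 with DESeq2 and 2691 at an adjusted p under 0.05. The 21 lower edge ratios became 8 with 3 edge bins, 53 with 10 and at 30 bins and 7 at 50, and the 51 higher 30 with 3 edge bins, 176 at 30 bins and 21 at 50. The 66.0% of bases held by the other table compares with 92.9%, 73.6% and 32.1% of regions with at least 1 bin, 50% and 90% of their bins there.

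In BT-549, the 146 higher regions became 56 with cyclic loess, 82 with the GC trend removed, 10 with the mean over bins, 89 with the highest bin, 441 at 30 bins and 52 at 50. The 93 lower became 155 with cyclic loess, 22 with the mean over bins, 201 at 30 bins and 58 at 50. The 5 rises of 2-fold became 2 with library totals, cyclic loess and at 50 bins, 1 with the GC trend removed, 11 with the highest bin and 21 at 30 bins, and the 50 falls 22 with the mean over bins, 81 at 30 bins and 29 at 50. The median of 0.13 became 0.0209 with library totals, -0.13 with cyclic loess, 0.000887 with the GC trend removed and -0.00115 at 50 bins. The 1988 changed bins became 685 with DESeq2 and 3020 at an adjusted p under 0.05. The 3 lower edge ratios became 0 with 3 edge bins and a pseudocount of 0.1, 13 with 10 edge bins and at 30 bins, 7 with a pseudocount of 5 and 1 at 50 bins. The 10 higher became 2, 20, 5 and 20 with 3 and 10 edge bins and pseudocounts of 0.1 and 5, and 6 at 50 bins. The share of 67.0% compares with 93.3%, 74.6% and 34.5%. The cause of these shifts was not tested.

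With a replicate block, 55 regions were higher and 251 lower in DU-145 and 147 and 94 in BT-549, and edge ratios in BT-549 were 16 higher and 10 lower. Leaving out 1 library gave 37 to 56 higher, 216 to 265 lower, 6 to 7 and 8 to 12 at 2-fold, medians of -0.297 to -0.196, 540 to 757 bins, 27 to 52 higher and 7 to 19 lower edge ratios and edge medians of 0.0111 to 0.0600 in DU-145. It gave 102 to 141 higher, 83 to 101 lower, 3 to 7 and 46 to 53 at 2-fold, medians of 0.0997 to 0.139, 1119 to 1821 bins, 0 to 15 higher and 0 to 6 lower edge ratios and edge medians of 0.0134 to 0.0725 in BT-549. The bins were fewest without vehicle replicate 2 (DU-145, 540) and DOX replicate 3 (BT-549, 1119), and the DU-145 edge ratios without DOX replicate 1 (27 higher) and DOX replicate 2 (7 lower). The 95 pairs that differed between the lines became 84 to 100.

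Of the 130 named regions, 32 changed sign somewhere. In DU-145 cyclic loess gave TENT5B 0.198, NEAT1 0.130, LINC-PINT 0.284, KRT7 0.118, TNIP1 0.117, TLE1 0.201, PIM3 0.0128, SFTA3 0.208, ZFP36 0.104, ACTG1 0.156, GAPDH 0.196, MALAT1 0.158, WDR81 0.248, ARID1B 0.160, E2F3 0.347, TGIF1 0.216, NKX2-1 0.362, FOXA1 0.120, SIX5 0.105, SOX12 0.367, H1-4 0.0462, H1-2 0.229, ZNF503 0.237, ZNF516 0.140 and ZNF131 0.272. Removing the GC trend gave ARID1B 0.0326, SOX12 0.0458 and ZNF516 0.00752, and the highest bin gave H1-2 0.204. In BT-549 the highest bin gave EGR1 0.328, JUNB -0.0109, TGIF1 -0.365, SKI -0.238, HOXA10 -0.260, TFAP2A -0.285 and H2BC21 0.466, and cyclic loess TGIF1 -0.0265 and TFAP2A -0.0142.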

Other observations

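Broad regions of BT-549 were frequent near the end of chromosome 8. Past 140 Mb there lay 26 of the 374 (6.95%), where 1.59% of all autosomal regions of the line lay, and their median log2 change with DOX was 0.49. In DU-145, 6 broad regions lay there, with a median of 0.04, and the share of all its regions there is not given. Medians over all regions of this stretch and under other scalings are not given, so no trait of broad regions is read from these values.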
